A study of Mus musculus with 42 samples.

Results

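The genes described here are Trp53, which encodes the transcription factor p53, and 9 genes that p53 is known to regulate, namely Mdm2, Cdkn1a, Ccng1, Pmaip1, Bbc3, Bax, Phlda3, Sesn2 and Trp53inp1. They were chosen by gene symbol, and all 10 were present among the 12988 genes of the deposited expression table. DNA methylation was taken from every 100 bp tile lying within the span of one of these genes or within 2 kb on either side, which gave 85 of the 141251 tiles in the deposited methylation table.

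In the study, male C57BL/6J mice, 8 weeks old at the start, received a vehicle or di(2-ethylhexyl) phthalate (DEHP, a plasticizer) for 67 days and were then mated with females that had no exposure. The low dose was 2.5 and the high dose 25 mg per kg per day. The 12 sperm samples carry an age label of 14 weeks, which is less than that starting age plus the exposure. Offspring were collected at embryonic day 7.5, during gastrulation, and carry the labels wild type, male and C57BL/6 * DBA/2J, and the groups differ by what the father received. The expression table holds 2 libraries named for control, 2 for the low and 2 for the high dose. The methylation table, made by reduced representation bisulfite sequencing (RRBS), holds 3 of each.

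The column names of both tables give the treatment and a number but not the tissue, so embryonic and extra-embryonic material could not be told apart, and for methylation sperm could not be told apart from embryo. Nothing in the labels says whether libraries of a group came from separate litters, embryos or pools, so all p-values measure the spread between these libraries only. In bulk tissue, fewer cells of a type and less RNA per cell cannot be told apart.

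p53 is a transcription factor that DNA damage and other stresses stabilise, and that switches on genes for cell-cycle arrest, apoptosis and metabolic adjustment. Mdm2, itself a p53 target, is the ubiquitin ligase that marks p53 for degradation and so closes a negative feedback loop. Around gastrulation the mouse epiblast divides fast and is known to enter apoptosis readily after DNA damage, and embryos without Mdm2 die early unless p53 is also removed.

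Promoter sequences were available for 8 of the 10 genes, as 11 windows of 300 bp (250 bp before to 50 bp after an annotated start) out of 32851 such windows in RefSeq, build GRCm38.p6. Each was searched on both strands for the p53 consensus half-site, a sequence of 10 bases. It was found in 5 of the 11 windows, against 8.36% of all windows. The genes were chosen as known p53 targets, so such a share could follow from the choice. Bbc3 and Cdkn1a gave several windows each, so the windows are not independent. The half-sites are shown because they are the letters p53 is known to read, here with 5 bases on either side and the half-site in capitals, on the strand of the gene.
Trp53, chr11:69580284-69580293 (+), 75 bp upstream of the start: cggaaGGACTTGCCCttact
Mdm2, chr10:117710935-117710944 (-), 186 bp upstream: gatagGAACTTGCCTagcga
Cdkn1a, chr17:29090906-29090915 (+), 73 bp upstream of the first start: ggtggGGACTAGCTTtctgg
Cdkn1a, chr17:29090928-29090937 (+), 51 bp upstream of the first start: ttcagGAACATGTCTtgaca
Ccng1, chr11:40755462-40755471 (-), 185 bp upstream: tgcccGGGCAAGCCTtggca
Bax, chr7:45467090-45467099 (-), 201 bp upstream: atcccAGGCAAGCTTtgaac

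Cdkn1a held the one window with a pair of half-sites no more than 13 bases apart, an arrangement present in 24 of the 32851 windows (0.0731%). The gene has 2 annotated starts, and the pair sits at the first one, 2863 and 2841 bp before the second. A distal p53 response element upstream of the main start is known for this gene, and whether the marked pair is that element was not tested. Directly after the second half-site, the bases tgacatgttc depart from the half-site pattern at the first base only, so they were not marked. The first window is printed with the half-sites in capitals, and the second with every CG dinucleotide, the sequence that DNA methylation modifies, in capitals.
Cdkn1a first start, chr17:29090729-29091028 (+): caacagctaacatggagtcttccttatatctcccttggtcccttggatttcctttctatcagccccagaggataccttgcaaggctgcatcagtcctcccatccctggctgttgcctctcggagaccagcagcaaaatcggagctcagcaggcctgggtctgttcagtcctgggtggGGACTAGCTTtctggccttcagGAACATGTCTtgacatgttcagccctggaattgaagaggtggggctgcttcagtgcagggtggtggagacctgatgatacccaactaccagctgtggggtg
Cdkn1a second start, chr17:29093519-29093818 (+): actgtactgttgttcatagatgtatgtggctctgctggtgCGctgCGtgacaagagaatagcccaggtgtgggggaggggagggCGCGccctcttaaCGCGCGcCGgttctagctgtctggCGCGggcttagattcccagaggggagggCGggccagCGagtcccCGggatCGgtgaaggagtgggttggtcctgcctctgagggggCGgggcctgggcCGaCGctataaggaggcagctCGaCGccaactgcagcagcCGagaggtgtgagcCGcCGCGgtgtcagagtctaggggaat
The first window holds 2 CG dinucleotides and the second 23, against a median of 7 over all windows. No RRBS tile covered either of them. A match of letters is a description of the sequence and was not measured as binding.

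The windows of Phlda3 and Mdm2 are shown because RRBS tiles lie inside them, with each CG in capitals. They hold 26 and 35 CG dinucleotides.
Phlda3, chr1:135765835-135766134 (+): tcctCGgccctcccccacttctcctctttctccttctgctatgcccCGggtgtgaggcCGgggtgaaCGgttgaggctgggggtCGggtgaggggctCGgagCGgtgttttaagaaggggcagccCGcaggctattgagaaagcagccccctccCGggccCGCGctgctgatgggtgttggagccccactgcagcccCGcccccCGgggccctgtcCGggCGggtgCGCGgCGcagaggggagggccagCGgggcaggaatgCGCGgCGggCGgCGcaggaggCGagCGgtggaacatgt
Mdm2, chr10:117710709-117711008 (-): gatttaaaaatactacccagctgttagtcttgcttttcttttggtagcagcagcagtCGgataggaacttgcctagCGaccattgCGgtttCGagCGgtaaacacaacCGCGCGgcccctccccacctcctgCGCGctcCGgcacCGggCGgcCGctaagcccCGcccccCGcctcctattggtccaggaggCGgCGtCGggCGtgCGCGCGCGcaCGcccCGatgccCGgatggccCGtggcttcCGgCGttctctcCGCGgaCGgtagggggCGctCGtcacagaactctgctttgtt

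Expression values are CPM (read counts scaled to the size of the library) as deposited, and a value is compared between libraries of one gene, never between genes. The columns summed to between 982921 and 1017434 CPM. In each library 27.9 to 29.8% of that sum lay in 3 rows that name no gene and were left out. All 10 genes passed the filter of at least 1 CPM in 2 or more libraries, as did 12987 of the 12988 genes. Every deposited CPM value was a whole multiple of 1 step per library, within a tolerance of 0.01 of a step. If 1 step is 1 read, the fewest reads behind any value were 568 (Bbc3) and the counting error was at most 4.2%.

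No p53 gene changed past the threshold between control, low and high. In limma fitted on log2(CPM + 1) over all genes, with Benjamini-Hochberg adjustment over all of them, 0 of the 10 had an adjusted p under 0.05 for low against control, where 0% of all genes did. The same count was 0 of 10 for high against control, where 0.00770% (1 gene, none of these) did, and 0 of 10 for high against low, where 0% did. At an unadjusted p under 0.05, low against control gave 2 genes higher (Ccng1, Phlda3) and 0 lower, where 1.90% of all genes were higher and 2.97% lower by the same rule. High against control gave 1 higher (Phlda3) and 1 lower (Pmaip1), beside 3.65% and 1.64% of all genes. High against low gave 0 higher and 1 lower (Pmaip1), beside 5.69% and 2.22%.

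**Figure D1:**
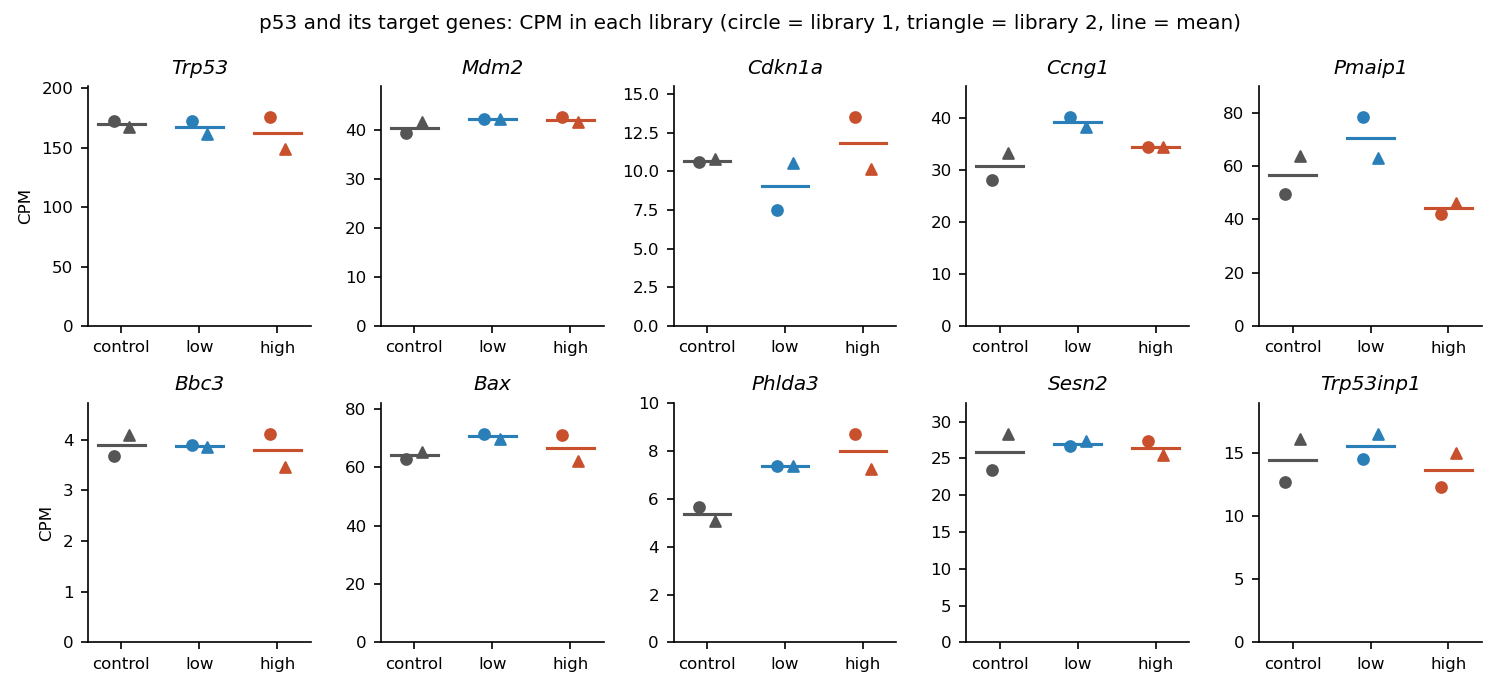
CPM of Trp53 and 9 p53 target genes in each expression library, 2 per group, with the group mean as a line; each panel has its own axis from 0. Phlda3 lies above both control libraries in all 4 libraries of exposed fathers, Pmaip1 is lowest in both high libraries, and Trp53, Bbc3, Sesn2 and Trp53inp1 overlap in all 3 comparisons.

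Groups of 2 libraries often fail to overlap, so the count of genes without overlap was read beside its background. For low against control 4 of the 10 were higher without overlap (Mdm2, Ccng1, Bax, Phlda3) and 1 was lower (Cdkn1a), where 18.0% of all genes were higher and 17.2% lower in that way. For high against control 2 were higher (Ccng1, Phlda3) and 1 lower (Pmaip1), beside 23.5% and 12.1% of all genes. For high against low 0 were higher and 2 lower (Ccng1, Pmaip1), beside 21.8% and 11.8%. The difference was positive, whatever its size, in 7 of the 10 genes for low against control, beside 51.0% of all genes. It was positive in 6 for high against control, beside 58.6%, and in 2 for high against low, beside 57.5%. The median log2 difference over the 10 genes was 0.09 for low against control, where the median over all genes was 0.0025. It was 0.04 for high against control, where that over all genes was 0.02, and -0.04 for high against low, where that over all genes was 0.01. These medians rested on single libraries. Low against control was 0.00969 without the first control library and 0.181 without the second. Without the first high library, high against control was -0.0305 and high against low -0.105.

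Trp53 itself was measured at 173 and 167 CPM in control, 173 and 161 in low, and 176 and 149 in high. The 3 groups overlapped, and the second high library was the lowest. The log2 difference was -0.03 (SE 0.08, adjusted p = 0.983) for low against control and -0.07 (SE 0.08, adjusted p = 0.917) for high against control. RefSeq lists a pseudogene, Trp53-ps, with which reads of Trp53 could be shared, so the level of Trp53 is uncertain to that extent. The amount or activity of p53 protein, which is controlled mostly after translation, was not measured.

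Mdm2, the inhibitor of p53, varied least of the 10 genes. It was at 39.3 and 41.5 CPM in control, 42.1 and 42.1 in low, and 42.5 and 41.5 in high, so that the highest library was 1.08 times the lowest. Both low libraries lay above both control libraries, by a log2 difference of 0.06 (SE 0.06, adjusted p = 0.944), and high overlapped both other groups.

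Cdkn1a encodes p21, the inhibitor of cyclin-dependent kinases that carries out much of the cell-cycle arrest by p53. Its CPM was 10.6 and 10.8 in control, 7.50 and 10.6 in low, and 13.5 and 10.1 in high. The control libraries were close together, while the libraries within low and within high lay far apart, and the lowest and highest values of the 6 were the first low and the first high library. Low was below control in both libraries with a log2 difference of -0.24 (SE 0.17, adjusted p = 0.928), and high against low was 0.36 (SE 0.17, adjusted p = 0.721) with overlap. The second low library was almost at the level of control, and low against control was -0.02 without the first low library and -0.46 without the second. High against low was 0.14 without the first low library, 0.58 without the second, 0.17 without the first high library and 0.55 without the second. Without the first high library the difference of high against control turned from 0.12 to -0.07, and without the second it was 0.31.

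Ccng1 encodes cyclin G1, which recruits a phosphatase that acts on Mdm2. It was at 28.04 and 33.3 CPM in control, 40.2 and 38.3 in low, and 34.5 and 34.4 in high. The groups did not overlap in any comparison, with control lowest and low highest. Low against control was 0.35 on the log2 scale (SE 0.09, unadjusted p = 0.00463, adjusted p = 0.928, limma), the 54th smallest unadjusted p of all genes. It was 0.23 without the first control library, the lower of that pair. High against control was 0.17 (SE 0.09, adjusted p = 0.866), 0.05 without the first control library and 0.29 without the second, and high against low was -0.18 (SE 0.09, adjusted p = 0.721).

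Pmaip1 (Noxa), Bbc3 (Puma) and Bax act in the mitochondrial pathway of apoptosis, the first pair as BH3-only proteins that neutralise survival proteins and Bax as a protein that opens the outer membrane. Pmaip1 was at 49.6 and 63.8 CPM in control, 78.4 and 63.1 in low, and 42.1 and 46.3 in high. Both high libraries were the lowest of the 6, and control and low overlapped. High against low was -0.66 (SE 0.14, unadjusted p = 0.00174, adjusted p = 0.284, limma), a mean of 44.2 ± 2.97 CPM (SD, n = 2) against 70.7 ± 10.8. High against control was -0.34 (SE 0.14, adjusted p = 0.866) and low against control 0.32 (SE 0.14, adjusted p = 0.928). Low against control was 0.14 without the first control library, 0.16 without the first low library and 0.50 without the second control library, and high against control was -0.52 and -0.16 without the first and second control library. Leaving out the second low library brought high against low past the threshold (-0.81, adjusted p = 0.0306), in a fit that called 291 genes and in which the lone low library was assumed to vary like the other groups.

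Bbc3 was at 3.69 and 4.09 CPM in control, 3.89 and 3.86 in low, and 4.12 and 3.47 in high, with both extremes in the high group. It overlapped in all 3 comparisons, and its differences lay between -0.03 and -0.0032. Bax was at 62.9 and 65.1 CPM in control, 71.4 and 69.6 in low, and 71.0 and 62.1 in high. Both low libraries lay above both control libraries (log2 difference 0.14, SE 0.07, adjusted p = 0.928), whereas the high libraries spanned nearly the whole range. Thus the 3 apoptosis genes did not follow one order of groups.

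Phlda3 encodes a small pleckstrin-homology protein that competes with the kinase Akt for membrane lipids and so restrains survival signalling. Its CPM was 5.67 and 5.08 in control, 7.36 and 7.38 in low, and 8.73 and 7.25 in high. All 4 libraries of exposed fathers lay above both control libraries, and low and high overlapped. Low against control was 0.40 (SE 0.11, unadjusted p = 0.00838, adjusted p = 0.928) and high against control 0.49 (SE 0.11, unadjusted p = 0.00262, adjusted p = 0.866), 1.41-fold on the log2(CPM + 1) scale and the 25th smallest unadjusted p of all genes in limma. The 2 comparisons share the same control libraries, so they are not independent of each other.

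Sesn2 encodes sestrin 2, which restrains mTORC1 under stress, and Trp53inp1 a nuclear protein that assists p53 and takes part in autophagy. Sesn2 was at 23.4 and 28.4 CPM in control, 26.7 and 27.4 in low, and 27.4 and 25.4 in high. Trp53inp1 was at 12.7 and 16.2 CPM in control, 14.5 and 16.6 in low, and 12.3 and 15.1 in high. Both genes overlapped in all 3 comparisons, and in both the spread within control was wider than the difference between any 2 group means. The adjusted p of Sesn2 was 0.962, 0.97 and 1 and that of Trp53inp1 0.961, 0.958 and 0.975 in low against control, in high against control and in high against low.

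**Figure D2:**
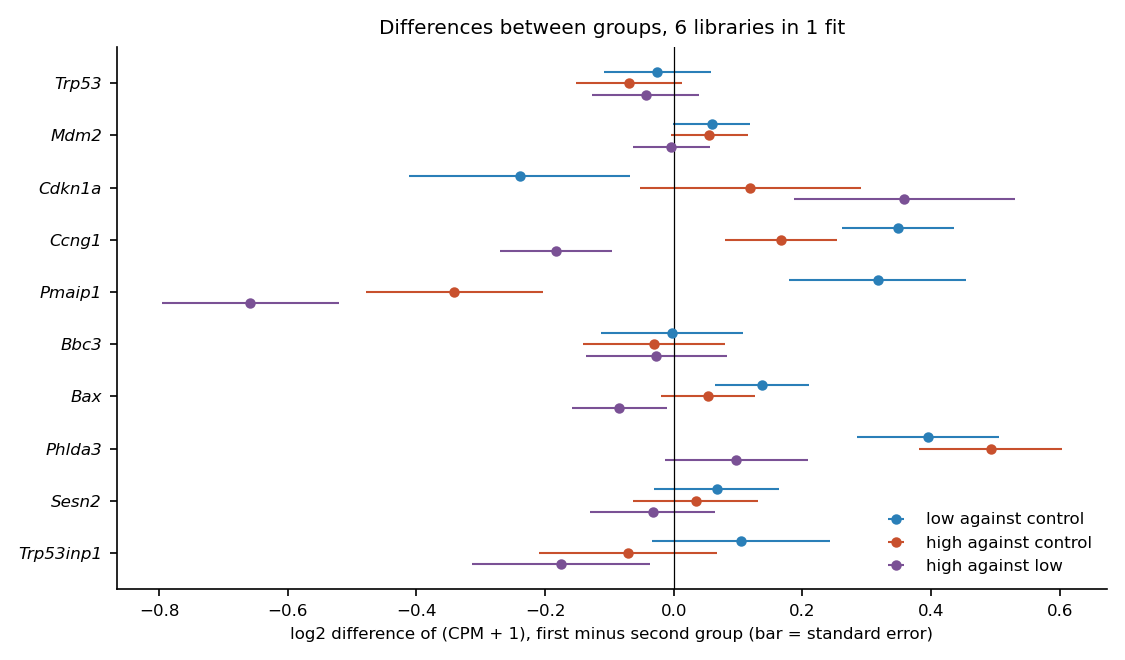
Log2 differences of CPM + 1 for Trp53 and 9 p53 target genes in the 3 comparisons, with standard errors from limma over 6 libraries. Phlda3 stands highest in high against control (0.49) and Pmaip1 lowest in high against low (-0.66); no difference passed the adjusted threshold.

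Across the 6 libraries the 10 genes did not move as one. The correlation of log2(CPM + 1) was 0.85 between Mdm2 and Ccng1, 0.84 between Mdm2 and Sesn2, and -0.79 between Cdkn1a and Pmaip1, each over 6 libraries that also differ in group. The genes with the pattern most like that of Cdkn1a were Pomt1 (r = 0.99), Gpc2 (0.98) and Nbdy (0.98), among 10114 genes of at least 5 CPM on average, of which 26 exceeded 0.95. For Mdm2 they were Snrpe (0.99), Bckdhb (0.99) and Dnaaf2 (0.99), with 45 genes above 0.95. With 6 libraries so many genes reach such values that they describe these libraries only.

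The wider pathway was described by 5 further lists. Among regulators and cofactors of p53, 23 of 25 were in the table, 0 were called by limma in any comparison, and 0 had an unadjusted p under 0.05. Their median log2 difference was -0.04 for low against control and -0.0048 for high against control. In low against control 10 of the 23 were positive, beside 51.0% of all genes. In high against control 11 were, beside 58.6%, and in high against low 15, beside 57.5%. Of this list Hipk2, a kinase that phosphorylates p53, was at 39.2 and 36.3 CPM in control, 36.6 and 28.7 in low, and 33.5 and 34.5 in high, and the low group overlapped control. Rpl11, a ribosomal protein that binds Mdm2, was at 448 and 468 CPM in control, 497 and 487 in low, and 511 and 476 in high, with both exposed groups above control. Ppp1r13l, which encodes the p53 inhibitor iASPP, was at 10.1 and 11.5 CPM in control, 11.1 and 11.5 in low, and 9.93 and 9.96 in high, so that high lay below the other groups.

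Of the other p53 targets in the cell cycle and growth, 11 of 12 were in the table and 0 were called. Their median was 0.09 for low against control, with 9 of 11 positive against 51.0% of all genes, and 0.03 for high against control, with 8 of 11 positive against 58.6%. At an unadjusted p under 0.05 each of these comparisons gave 1 gene higher and 0 lower, beside 1.90% and 2.97% of all genes for low against control and 3.65% and 1.64% for high against control. For high against low 3 of the 11 were positive, beside 57.5% of all genes. That comparison gave 0 higher and 0 lower at an unadjusted p under 0.05, beside 5.69% and 2.22%. Plk2, a polo-like kinase, was at 3.03 and 2.88 CPM in control, 4.29 and 3.55 in low, and 4.18 and 3.76 in high, with all 4 exposed libraries above control (high against control 0.33, SE 0.11, adjusted p = 0.866). Sfn (14-3-3 sigma) was at 5.33 to 5.47 CPM in 5 libraries and at 11.9 in the first low library. Zmat3, an RNA-binding protein, was at 39.6 and 45.1 CPM in control, 44.3 and 44.1 in low, and 41.6 and 39.0 in high, so that high lay below low and both overlapped control.

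Of the other p53 targets in cell death, 12 of 14 were in the table and 0 were called. At an unadjusted p under 0.05, low against control gave 2 higher and 0 lower, beside 1.90% and 2.97% of all genes. High against control gave 0 higher and 0 lower by that rule, beside 3.65% and 1.64%. High against low gave 0 higher and 1 lower (Steap3), beside 5.69% and 2.22%. For low against control 10 of the 12 were positive, beside 51.0% of all genes. In high against control 8 were, beside 58.6%, and in high against low 2, beside 57.5%. Their median was 0.09 for low against control, 0.04 for high against control and -0.06 for high against low. Aen, an apoptosis-enhancing nuclease, was at 79.3 and 81.7 CPM in control, 96.2 and 89.9 in low, and 94.1 and 82.4 in high, with every exposed library above control (low against control 0.21, SE 0.08, adjusted p = 0.928). Eda2r, a death receptor, was at 1.45 and 2.01 CPM in control, 2.60 and 2.18 in low, and 2.06 and 2.07 in high. Every exposed library of Eda2r lay above control too, although the high libraries were close to the second control library. Steap3, a ferrireductase, was at 5.64 and 5.79 CPM in control, 7.17 and 5.14 in low, and 4.996 and 3.59 in high, with high lowest.

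Of the other targets in DNA repair and metabolism, 15 of 16 were in the table and 0 were called, with medians of 0.02 for low against control and 0.0011 for high against control. At an unadjusted p under 0.05, low against control gave 0 higher and 1 lower (Ddit4), beside 1.90% and 2.97% of all genes. High against control gave 1 higher (Ercc5) and 0 lower, beside 3.65% and 1.64%. High against low gave 0 higher and 1 lower (Sesn1), beside 5.69% and 2.22%. In low against control 9 of the 15 were positive, beside 51.0% of all genes. In high against control 9 were, beside 58.6%, and in high against low 6, beside 57.5%. Ddit4, an mTORC1 inhibitor also induced by hypoxia, was at 54.3 and 94.5 CPM in control, 35.8 and 53.2 in low, and 61.3 and 66.0 in high. Both low libraries of Ddit4 lay below control (-0.70, SE 0.26, adjusted p = 0.928), and the second control library stood above the other 5. Sesn1, a relative of Sesn2, was at 12.8 and 13.2 CPM in control, 13.9 and 13.6 in low, and 11.5 and 12.04 in high. Ercc5, an endonuclease of nucleotide excision repair, was at 19.6 and 18.8 CPM in control, 20.03 and 20.7 in low, and 21.9 and 21.4 in high. Sesn1 was lowest in high and Ercc5 highest in high, without overlap.

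Of the mitochondrial apoptosis machinery, 14 of 15 genes were in the table, and 0 were called or had an unadjusted p under 0.05 in any comparison by limma. The medians were -0.03 for low against control and 0.05 for high against control. In low against control 5 of the 14 were positive, beside 51.0% of all genes. In high against control 9 were, beside 58.6%, and in high against low 9, beside 57.5%. Diablo, which relieves inhibition of caspases, was at 53.4 and 55.0 CPM in control, 56.4 and 59.0 in low, and 58.0 and 57.7 in high, with both exposed groups above control. Bad, a BH3-only protein, was at 6.15 and 5.53 CPM in control, 5.73 and 6.34 in low, and 6.73 and 6.53 in high, with high above both other groups.

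**Figure D3:**
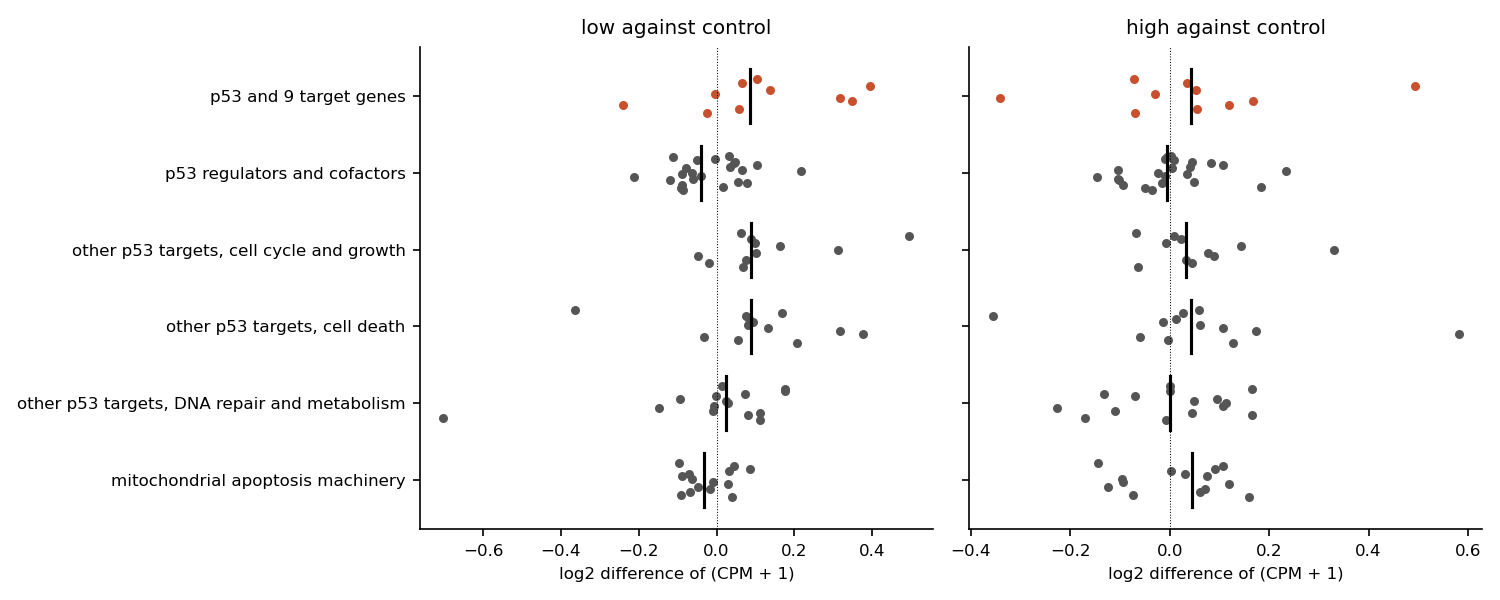
Log2 difference of CPM + 1 for each gene of the p53 set and of 5 further lists, for low against control and high against control; each point is a gene and the vertical line is the list's median. The medians lie between -0.04 and 0.09, and no gene passed the adjusted threshold.

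Marker genes of other tissues varied between the same libraries. The summed CPM of the embryo-proper markers, all 9 of them in the table, was 1086 and 1216 in control, 1323 and 1149 in low, and 1019 and 876 in high, so that high was lowest, as for Pmaip1. All 9 had a negative difference for high against control, where 58.6% of all genes had a positive one. Of the 9, 3 had an unadjusted p under 0.05, beside 1.64% of all genes lower by that rule. The 8 visceral endoderm markers, all in the table, summed to 2198 and 1037 in control, 1684 and 1953 in low, and 1735 and 2328 in high. All 8 had a positive difference in each comparison with control, as did Mdm2, Ccng1, Bax, Phlda3 and Sesn2. Of all genes, 51.0% were positive in low against control and 58.6% in high against control. The marker sum was lowest in the second control library, as was Phlda3. Mdm2, Ccng1 and Sesn2 were lowest in the first control library and Bax in the second high library. In low against control 4 of the 8 markers had an unadjusted p under 0.05, beside 1.90% of all genes higher. As many lay above control without overlap, beside 18.0%. In high against control 5 of the 8 had such a p, beside 3.65%, and 5 did not overlap, beside 23.5%. The sum in the first control library lay above that of 4 of the 5 others, with Apob and Cubn as its largest members.

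Trophoblast markers, 7 of 10 in the table without Elf5, Tpbpa and Gcm1, summed to 104 and 68.2 in control, 136 and 95.4 in low, and 102 and 134 in high. Outside the first low library, Cdx2 and Hand1 were the largest members of that sum. The giant-cell gene Prl3d1 reached 28.4 CPM in the first low library, which also had the lowest Cdkn1a and the highest Pmaip1, and lay between 0.364 and 9.72 in the others. Blood markers, 3 of 6 in the table without the embryonic globins Hba-x, Hbb-y and Hbb-bh1, summed to 8.27 to 15.7 CPM, with both high libraries highest. Of these, Tal1 had that order, at 6.91 and 9.15 CPM in high and 1.95 to 4.49 in control and low. Gata1 went the other way, at 1.90 and 2.04 CPM in high and 2.34 to 2.69 in control and low. For Runx1 high overlapped control. Decidua markers, 5 of 7 in the table, summed to 102 and 91.2 in control, 63.6 and 99.4 in low, and 108 and 132 in high. Most of that sum was Vim, at 87.8 and 78.4 CPM in control, 52.1 and 87.5 in low, and 89.0 and 115 in high. Prl8a2 lay between 0.325 and 3.32 CPM, at 3.32 and 0.801 in high. None of the markers in the table was at 0 in any library, and their part in the values of the p53 genes was not tested.

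Methylation is the percent of reads methylated in a tile, as deposited, without the read depth behind it. No tile and no p53 gene differed past the threshold. In limma over all 141251 tiles, 0 of the 85 tiles had an adjusted p under 0.05 for low against control, high against control or high against low, where 0% of all tiles did in each. At an unadjusted p under 0.05, low against control gave 1 tile higher and 6 lower, where 3.26% of all tiles were higher and 2.23% lower. High against control gave 1 higher and 0 lower, beside 2.64% and 1.80%, and high against low gave 5 higher and 1 lower, beside 2.39% and 2.32%. Groups of 3 did not overlap in 6 tiles higher and 8 lower for low against control, beside 5.26% and 4.27% of all tiles. They did not overlap in 3 and 2 tiles for high against control (5.16% and 4.07%), and in 9 and 5 for high against low (4.80% and 4.76%). Neighbouring tiles can share fragments, so the tiles of a gene are not independent.

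Most tiles at the starts of the p53 genes were weakly methylated. Of the 53 tiles within 1 kb of a start, 51 (96.2%) had a mean under 20% and 0 were over 60%, with a median of 5.84%. Over the 42963 tiles within 1 kb of any gene's start, 93% were under 20% and the median was 3.69%, while over all tiles the median was 20.5%. Of the 26 tiles further inside the genes, 7 exceeded 60%. These were the 2 tiles of Trp53 8692 and 9992 bp downstream of the start (means 89.7 and 91.6%), 1 tile of Cdkn1a 4982 bp downstream (84.0%), 3 of Bbc3 6820 to 7320 bp downstream (69.0 to 74.6%) and 1 of Bax 1648 bp downstream (74.4%).

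**Figure D4:**
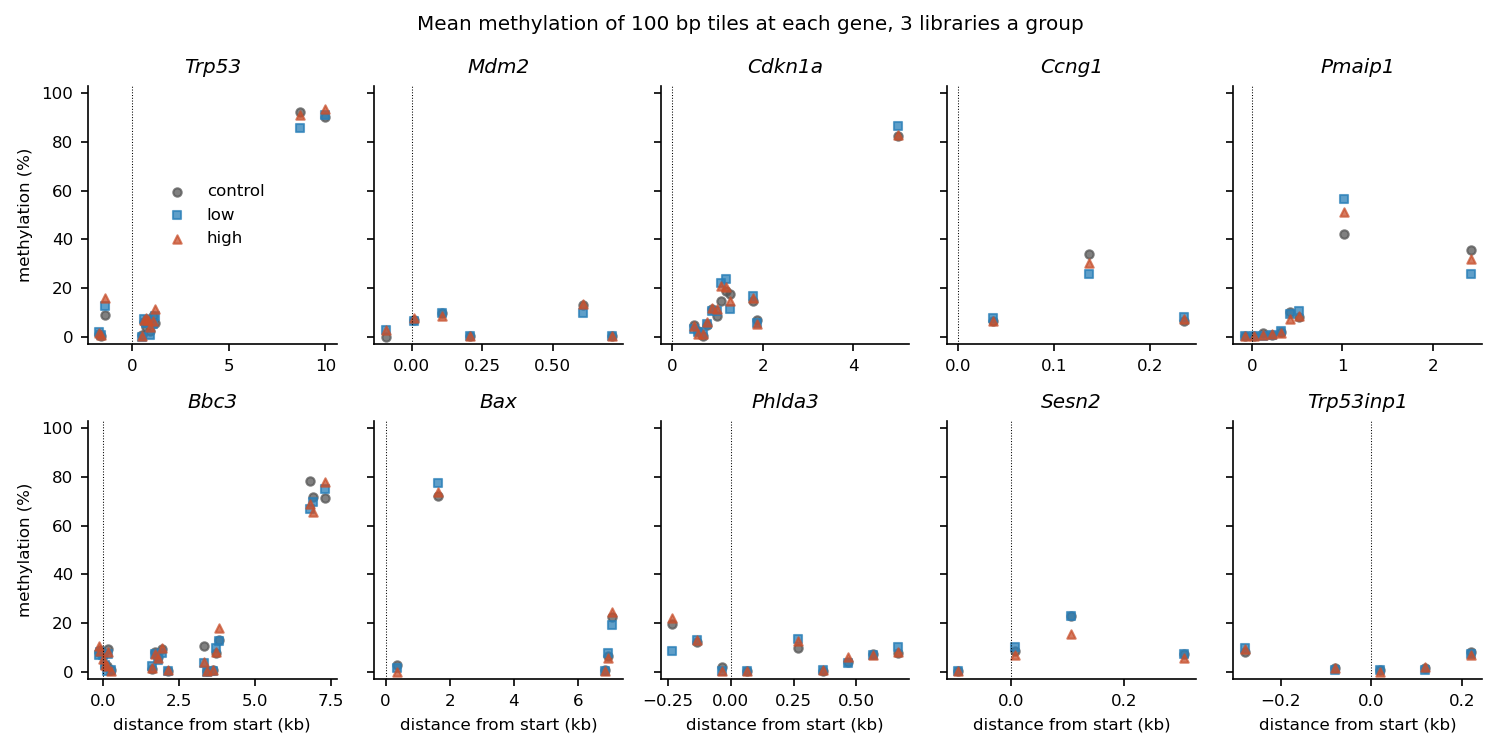
Mean methylation of the 85 tiles at Trp53 and 9 p53 target genes against the distance of the tile's centre from the nearest annotated start, with 1 point for each group of 3 libraries. Methylation is low around the starts and above 60% at 7 tiles far inside 4 genes, and the 3 groups lie close together at most tiles.

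The tile nearest the start was at 12.04% or less in every library for all 10 genes. Its mean was 8.60% for Sesn2, 7.05% for Mdm2, 6.95% for Ccng1 and 6.42% for Bbc3. It was 4.26% for Cdkn1a, 1.45% for Bax, 0.902% for Phlda3, 0.424% for Trp53inp1, 0.397% for Pmaip1 and 0.299% for Trp53. For Cdkn1a, Trp53 and Bax that tile was centred 482, 492 and 348 bp downstream, and for the others within 36 bp. For Pmaip1 and Trp53inp1, which had no promoter entry, the start was taken as the lower end of the gene's coordinates.

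Taken as 1 mean per gene and library, methylation varied little for most genes. Mdm2 lay between 4.33 and 5.70%, Cdkn1a between 15.3 and 16.9%, Bbc3 between 14.1 and 16.4%, Pmaip1 between 10.3 and 12.9% and Bax between 19.6 and 23.1%. Trp53 lay between 17.5 and 21.8%, and Trp53inp1 between 2.57 and 5.18%. Phlda3, between 4.86 and 9.41%, Ccng1, between 12.03 and 19.3%, and Sesn2, between 6.47 and 14.4%, were spread more widely. The groups did not overlap for 1 gene higher and 0 lower in low against control (Cdkn1a), beside 5.34% and 4.45% of all genes. In high against control 3 were higher (Trp53, Mdm2, Cdkn1a) and 0 lower, beside 5.41% and 3.63%, and in high against low 0 were higher and 0 lower, beside 5.18% and 4.39%. In limma over 11901 genes with tiles, the smallest unadjusted p was 0.0602 (Cdkn1a, low against control, 0.95 percentage points higher, adjusted p = 0.929), and 0 of the 10 genes were called, with 0% of all genes called in each comparison. An unadjusted p under 0.05 was found for 0 of the 10 in each, beside 5.46% of all genes for low against control, 4.08% for high against control and 4.72% for high against low. For the means within 1 kb of a start, available for 8 of the 10, 0 were called by limma in any comparison (0% of the 8710 genes) and 0 had an unadjusted p under 0.05, beside 4.97%, 3.34% and 4.37% of those genes in the same order.

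Single tiles with the smallest unadjusted p for their gene are given here for the 10 genes. At Phlda3 the tile at chr1:135765801-135765900, centred 234 bp upstream of the start, shares 66 bases with the printed window. It was methylated at 13.1, 20.8 and 25.3% in control, 4.17, 9.30 and 12.4% in low, and 24.4, 16.3 and 25.9% in high. All low libraries lay below all others. High against low was 13.6 percentage points (SE 3.95, unadjusted p = 0.0104, adjusted p = 0.961). In expression, by contrast, the low and high libraries of Phlda3 overlapped and control was lowest, and no label matches the expression libraries to the methylation libraries.

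At Pmaip1 the tile at chr18:66459501-66459600, inside the gene 1018 bp downstream, was methylated at 42.0, 44.7 and 40.2% in control, 58.7, 59.3 and 51.8% in low, and 49.6, 43.3 and 61.5% in high. The low libraries lay above all control libraries, and the high group overlapped both. Low against control was 14.2 percentage points (SE 4.51, unadjusted p = 0.0156, adjusted p = 0.842). The Pmaip1 tile 2418 bp downstream went the other way, at -9.76 points without overlap (SE 3.52, adjusted p = 0.879, limma). The gene mean of Pmaip1 differed by 0.65 points in that comparison. At Cdkn1a the tile at chr17:29095001-29095100, 1282 bp downstream of the second start, was at 21.1, 16.1 and 15.3% in control, 11.2, 13.9 and 9.42% in low, and 13.6, 13.5 and 17.7% in high. Low lay below control by 6.00 percentage points (SE 2.04, adjusted p = 0.868). The adjacent tile, 1182 bp downstream, went the other way, with low 5.12 points above control without overlap (SE 2.2, adjusted p = 0.913, limma).

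At Trp53 the tile at chr11:69581201-69581300, 892 bp downstream, was at 1.89, 2.23 and 3.05% in control, 0.34, 0.83 and 1.40% in low, and 3.20, 5.70 and 2.78% in high. High exceeded low by 3.04 percentage points without overlap (SE 0.917, adjusted p = 0.968). The remaining 6 genes are given by their difference alone, and none passed the adjusted threshold. High against low was 3.78 points at Mdm2 (608 bp downstream), 1.96 points at Bbc3 (120 bp downstream), -3.36 points at Sesn2 (6 bp downstream) and 0.904 points at Trp53inp1 (120 bp downstream). It was 5.31 points with overlap at Bax, in a tile 7048 bp downstream of the start that lies past the gene's end in the neighbouring gene Ftl1. For Ccng1 the smallest p was for low against control, with 1.82 points 236 bp downstream. Similarly, 3 of the Trp53 tiles, upstream of its start, lie in the neighbouring gene Wrap53.

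**Figure D5:**
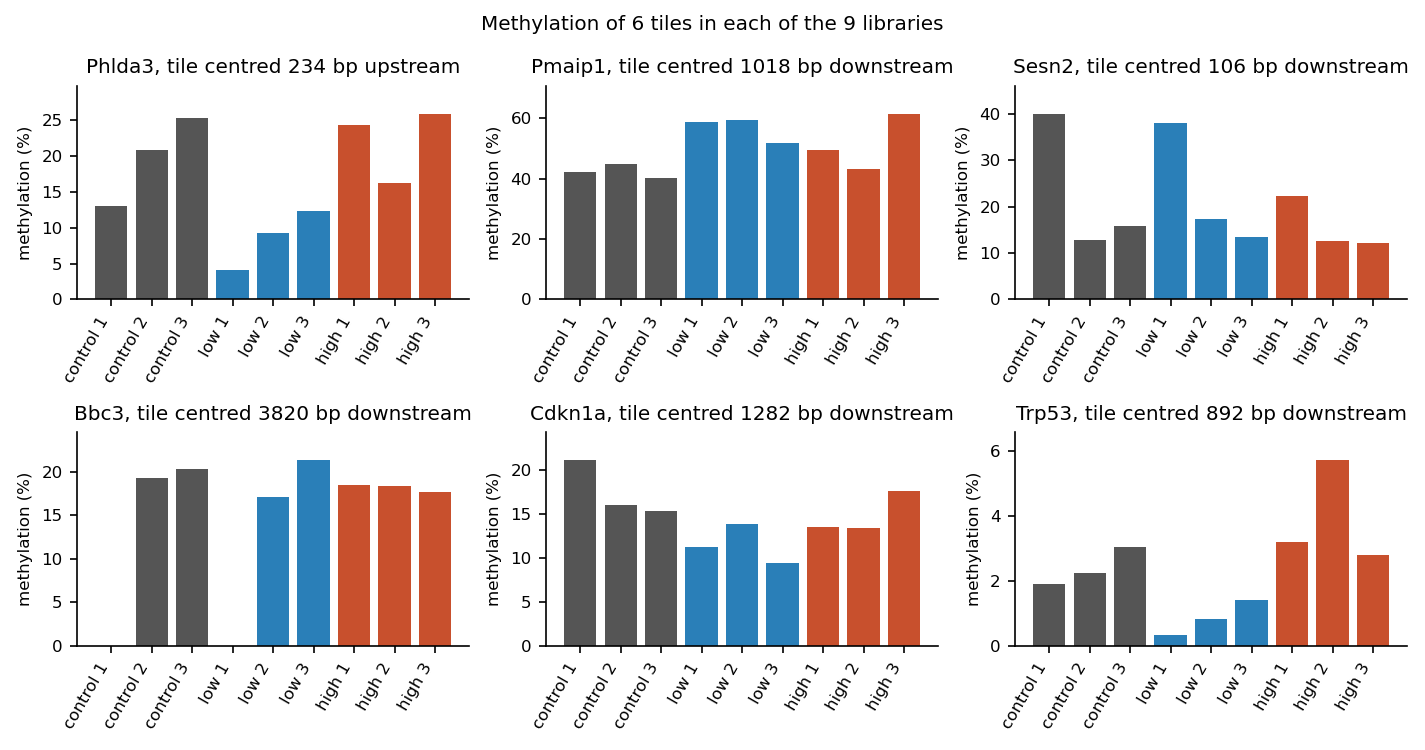
Methylation percent of 6 tiles at p53 genes in each of the 9 methylation libraries, coloured by group; distances are from the nearest annotated start to the tile's centre. The Phlda3 tile is lowest in the 3 low libraries, the Pmaip1 tile is lower in the 3 control than in the 3 low libraries, and at Sesn2 and Bbc3 the first control and first low libraries stand apart from the other 7.

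A pair of tiles set the first control and the first low library apart from the others, whatever the group. At Sesn2 the tile at chr4:132510301-132510400, 106 bp downstream of the start, was at 40, 12.9 and 15.7% in control, 38, 17.4 and 13.5% in low, and 22.3, 12.5 and 12.2% in high. At Bbc3 the tile at chr7:16314201-16314300, 3820 bp downstream, was at 0, 19.3 and 20.3% in control, 0, 17.1 and 21.3% in low, and 18.5, 18.3 and 17.6% in high. Over all tiles, 99 put these 2 libraries at least 10 percentage points beyond the other 7 in one direction, while each of the other 35 pairs of libraries had 9 to 61 such tiles. The wide range of Sesn2 among the gene means followed from its tile, with 13.5 and 14.4% in these 2 libraries and 6.47 to 8.65% in the other 7. The tiles were chosen after their values were seen.

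A further pair of tiles near starts were wider in range within groups than between them. At Ccng1 the tile 136 bp downstream was at 35.6, 41.1 and 25.1% in control, 21.4, 21.7 and 34.5% in low, and 24.2, 23.3 and 43.6% in high, with all groups overlapping. At Phlda3 the tile 266 bp downstream was at 1.25% in the first control library and between 10.53 and 15.6% in the other 8. In most tiles the spread was small, with a median range of 5.63 percentage points over the 9 libraries and a range over 15 points in 11 of the 85.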

How the data were processed

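Expression was analysed in 6 RNA-seq libraries and DNA methylation in 9 RRBS libraries, taken from tables that the authors deposited for the whole series; 42 samples are listed in the labels, and libraries were assigned to groups by the treatment in the column names. The deposited expression values are CPM per gene, per the file headers, and the deposited methylation values are percent methylation per 100 bp tile, per the file headers and the values. Per the submitters' processing notes the tools included TopHat, Bowtie 0.12.2, edgeR and SAMtools, as well as Bismark, Bowtie2, Trim Galore and methylKit, on the builds mm8 and mm10; their settings, the strandedness of counting, any coverage minimum and the build of each table are not given in the sources used here. The coordinates in the expression table start within 45 bp of the RefSeq GRCm38.p6 gene for the 8 genes compared, so they were read as mm10.

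CPM was transformed to log2(CPM + 1), genes under 1 CPM in all or all but 1 library were dropped, and limma 3.58.1 (R 4.3.3) with a mean-variance trend was fitted to all 3 groups (3 residual degrees of freedom before moderation). Percent methylation was fitted without a trend over all tiles (6 residual degrees of freedom), and likewise over gene means. Adjusted p-values are Benjamini-Hochberg over all genes or tiles. The pseudocount makes the fold of a gene with few CPM smaller than it is. The fits were tested on simulated data. Read depths are unknown for methylation, so no counting interval is given there. Correlations of the libraries' deviations were small for equal numbers in the column names, but comparing equal with different numbers cannot decide on pairing.

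The genes and lists were chosen with earlier results of these data known. Named were every gene of the set, the 3 genes of each list with the smallest p (1 of them is not reported here), the tile nearest each start and the tile with the smallest p, and for Cdkn1a and Mdm2 the 3 most correlated genes. Alternatives were another pseudocount, filters, rescaling, quantile normalization, fits without a trend or of 2 groups, a logit scale, other gene spans, a replicate block, and leaving out each library.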

Additional observations from a re-analysis of the deposited data

How the results depend on the processing

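Of the values that answer the comparisons, 172 recomputed ones kept their direction and their side of the threshold and 5 moved, all 5 on leaving out a library. Most of these values were counts of 0 called, which could move only if a gene, tile or mean passed the threshold. That they stayed therefore says little. Across the libraries left out, the median log2 difference of the 10 genes ranged from 0.00969 to 0.181 for low against control, from -0.0305 to 0.0919 for high against control and from -0.105 to 0.0164 for high against low. The number of genes called stayed at 0 for low against control and high against control and was 0 to 1 for high against low, the 1 being Pmaip1 without the second low library. No tile and no gene mean was called with any library left out. Among single genes, tiles and means 546 recomputed values kept direction and side and 22 reversed, of which Bbc3 for low against control under quantile normalization (0.0214) was the only one with all libraries present; the cause was not tested. The other 21 came from leaving out a library, in genes whose difference was small, with these ranges: for low against control Sesn2 -0.0665 to 0.2, Trp53inp1 -0.0565 to 0.265, Bbc3 -0.0626 to 0.0561, Trp53 -0.0733 to 0.0226; for high against control Sesn2 -0.0992 to 0.167, Bbc3 -0.128 to 0.0675, Trp53inp1 -0.232 to 0.0898, Cdkn1a -0.0713 to 0.309, Bax -0.0426 to 0.149, Trp53 -0.185 to 0.047; for high against low Trp53 -0.16 to 0.0724, Phlda3 -0.0215 to 0.216, Mdm2 -0.0206 to 0.0129, Bbc3 -0.125 to 0.0707, Bax -0.18 to 0.0111, Sesn2 -0.0852 to 0.0199. Deviations of same-numbered libraries correlated at -0.073 to 0.09 in expression and -0.033 to 0.029 in methylation. For differently numbered libraries this was -0.09 to 0.073 and -0.031 to 0.029. With 2 expression libraries a group, deviations from the group mean mirror each other, so the 2 ranges there were bound to be opposite. In methylation the deviations also cancel out within a group, so comparing the ranges cannot decide on pairing. The same-number values were themselves small, at most 0.09 in expression and 0.029 in methylation. The first control and first low library nevertheless stood apart together at 99 tiles. A fit with the number as a replicate block called 0 of the 10 genes, 0 tiles and 0 gene means in each comparison. The fit without it also called 0, so the block fit cannot show whether libraries were paired. The planned edgeR test was not run, since the deposited CPM values were not turned back into reads. With 2 libraries a group and unknown tissue and methylation depth, differences below the spread between libraries cannot be detected here.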
